A study of Mus musculus with 8 samples.

Results

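Ribbon synapse genes were examined in whole retinas of Lpcat1 wildtype (WT) and knockout (KO) mice at 2 weeks of age. The group held 10 genes of the photoreceptor terminal, out of 20018 genes named on the array, namely Ctbp2, Bsn, Pclo, Rims2, Cacna1f, Cacna2d4, Cabp4, Stx3, Cplx3 and Cplx4. They were listed by name for their known place at the synapse, with earlier results of these data known, and every non-control probe whose annotated RefSeq transcript belonged to one of them was taken. This gave 15 of the 55681 probes on the array. Pclo had 4 probes and Stx3 had 3, and the other members had 1 each. Total RNA of 4 WT and 4 KO retina samples of strain C57BL/6 was hybridised in 1 colour to Agilent mouse arrays, with 1 array per sample. In whole retina RNA the signal of a member cannot be assigned to photoreceptors or to other cells. The labels do not state whether the 4 samples of a genotype were separate animals or pools, so p-values measure the spread between these samples. The Lpcat1 deletion was global rather than limited to photoreceptors, and the colony had been crossed to C57BL6/J so that animals homozygous for the rd8 allele of Crb1 were not used.

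Photoreceptors signal in darkness by releasing glutamate continuously, and they do so from a specialised terminal. A plate-shaped ribbon, built from RIBEYE, tethers a large pool of synaptic vesicles above the release site, and the scaffold proteins Bassoon and Piccolo surround it. A voltage-gated calcium channel that stays open during sustained depolarisation lies beneath the ribbon and couples light-dependent voltage to fusion through syntaxin 3 and the retinal complexins. Loss of several of these components is known to cause night blindness or cone-rod synaptic disorder. Lpcat1 itself encodes an enzyme that builds saturated phosphatidylcholine, and the comparison asks whether transcripts of the synaptic machinery differ when it is missing.

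The data gave each probe a level, which is log2 of the processed signal minus the 75th percentile of log2 signals on the same array. That percentile corresponded to 638 to 738 signal units, saturation affected 0 spots, and 33113 to 36373 probes per array were well above background. The 8 arrays shared 1 slide, with WT in its row 1 and KO in its row 2, so that slide row and genotype cannot be told apart. Arrays with the same replicate number lay in the same slide column. At the single Lpcat1 probe the levels were -0.42, -0.39, -0.43 and -0.38 on WT arrays 1 to 4 and -0.88, -0.92, -0.90 and -0.78 on KO arrays 1 to 4. The signal fell by 0.46 on the log2 scale (limma adjusted p = 0.0036) but was still well above background in KO. Whether this probe lies in the deleted part of the gene is not given in the sources used here, so it does not settle how much intact transcript remained.

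The stretches of 250 bases directly upstream of annotated starts were read for members with an entry in the RefSeq promoter table (assembly GRCm38.p6), which were 6 of the 10 genes with 7 starts. They are shown for 4 members on which the comparison below turns. Pclo was the member whose probes passed the test, Bsn encodes the scaffold partner of Piccolo, Ctbp2 encodes the ribbon body, and Stx3 had 1 probe with no overlap between genotypes. Capitals mark CpG dinucleotides in the Pclo and Bsn sequences. In the Ctbp2 sequence they mark GGATTA, which is TAATCC read on the opposite strand, and the Stx3 sequence has no capitals. TAATCC is the core of the motif bound by CRX, a homeodomain factor that drives photoreceptor genes.
Pclo (chr5:14514668-14514917, plus strand): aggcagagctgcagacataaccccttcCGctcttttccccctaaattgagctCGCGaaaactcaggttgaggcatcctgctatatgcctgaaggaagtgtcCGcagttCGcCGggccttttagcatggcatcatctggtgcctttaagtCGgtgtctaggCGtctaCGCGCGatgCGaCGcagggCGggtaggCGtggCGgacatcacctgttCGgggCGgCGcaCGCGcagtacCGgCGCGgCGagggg
Bsn (chr9:108190384-108190633, minus strand): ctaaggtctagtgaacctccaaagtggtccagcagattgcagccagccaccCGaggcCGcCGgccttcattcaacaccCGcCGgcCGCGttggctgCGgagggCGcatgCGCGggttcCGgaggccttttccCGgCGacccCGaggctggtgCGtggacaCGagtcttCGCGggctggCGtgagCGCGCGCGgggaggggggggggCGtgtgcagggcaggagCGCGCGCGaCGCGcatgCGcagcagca
Ctbp2 (chr7:133015248-133015497, minus strand): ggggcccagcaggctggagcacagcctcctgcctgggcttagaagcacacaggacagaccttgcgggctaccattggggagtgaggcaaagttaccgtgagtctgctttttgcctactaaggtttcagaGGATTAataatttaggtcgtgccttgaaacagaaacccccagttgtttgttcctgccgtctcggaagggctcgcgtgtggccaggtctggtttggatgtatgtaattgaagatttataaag
Stx3 (chr19:11819404-11819653, minus strand): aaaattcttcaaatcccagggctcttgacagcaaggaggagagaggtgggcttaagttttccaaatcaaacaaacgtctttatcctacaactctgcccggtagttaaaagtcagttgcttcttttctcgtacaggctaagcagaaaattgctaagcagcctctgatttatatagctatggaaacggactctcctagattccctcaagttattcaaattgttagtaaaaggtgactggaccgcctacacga

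The upstream stretches of the scaffold genes were rich in CpG. That of Bsn held 32 CpG dinucleotides and that of Pclo 25, against a median of 6 and an upper quartile of 16 over the 32851 stretches of the same length in the table. Fewer CpG dinucleotides were counted in 95.4% and 89.3% of all stretches than in those of Bsn and Pclo, respectively. The stretch at the Ctbp2 start shown held 7 and that of Stx3 held 6. Of the 7 starts, TAATCC on either strand was found only at this Ctbp2 start, at position -121 from the start, and 6.25% of all stretches hold it. TATAAA on either strand was found at the same Ctbp2 start and at Stx3, and 12.4% of all stretches hold it. The matches to the different motifs did not overlap. Such matches describe the letters in this window and are not evidence of binding.

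Among the 10 ribbon synapse genes, Pclo was the only one with a probe called different between genotypes. A probe was called at a limma adjusted p under 0.05 over all 33972 probes tested together with a fold change over 1.2, which is 0.26 on the log2 scale. All 15 member probes were well above background on all 8 arrays and all were tested. Of these, 2 were called, both of Pclo and both higher in KO, and 0 were called lower, while 2.92% of all tested probes were called (1.38% higher and 1.54% lower). At an unadjusted p under 0.05 there were 7 member probes, 3 higher and 4 lower in KO, beside 23.8% of all tested probes (8.13% higher and 15.6% lower). The same 7 probes were those in which the 4 KO levels did not overlap the 4 WT levels, against 17.5% of all tested probes (6.05% higher and 11.4% lower). Without any threshold, KO was higher at 7 member probes and lower at 8, while it was higher at 38.0% and lower at 62.0% of all tested probes. The median difference of the 15 probes was -0.01, beside -0.04 over all tested probes. Under quantile normalization it was 0.04, beside -0.02 over all tested probes, and under cyclic loess it was 0.04, beside -0.003. No direction is therefore given for this median. Probes of 1 gene share their target and are not independent of each other.

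The spread within a genotype was small at these probes, with SDs of 0.02 to 0.14 on the log2 scale, and this sets what size of difference could be seen. In 10 of the 15 probes the 95% interval of the difference lay wholly within a 1.2-fold change in either direction, as it did in 51.5% of all tested probes. These 10 included the only probes of Ctbp2, Rims2, Cacna1f, Cacna2d4, Cplx3 and Cplx4. The intervals of the remaining 5 probes, namely the called pair of Pclo, 1 of Stx3 and those of Bsn and Cabp4, reached beyond that limit on 1 side.

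**Figure D1:**
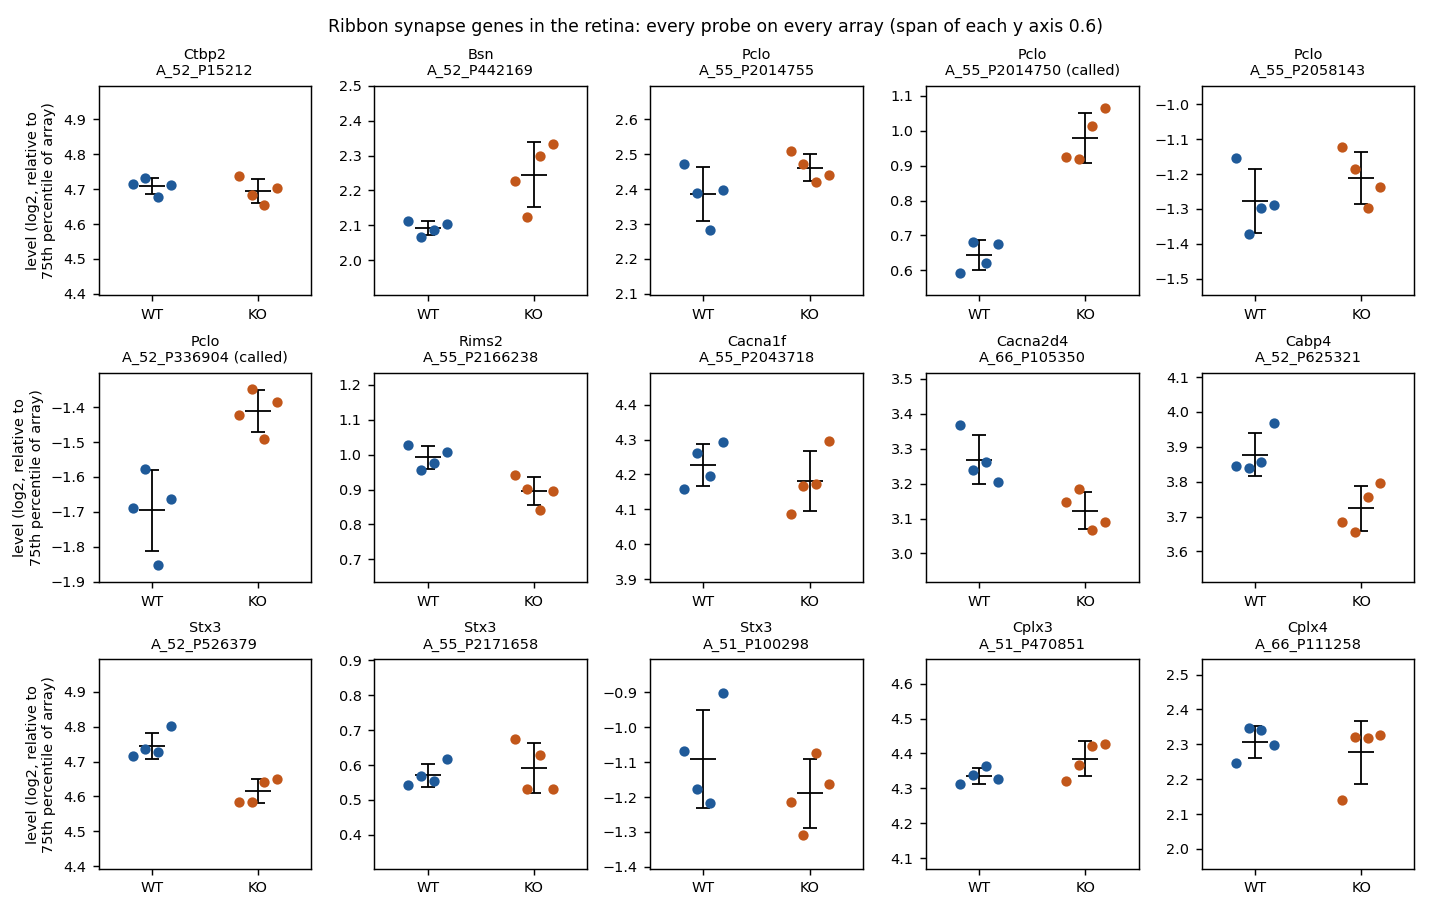
Level of every ribbon synapse probe on each of the 8 arrays. The y axes show the level (log2 scale, 75th percentile of an array at 0), each spanning 0.6, points are arrays (WT blue, KO orange), and bars are the mean ± SD of 4 arrays. The KO points of the called Pclo probes lie wholly above the WT points, while those of Ctbp2, Cacna1f, Cplx3 and Cplx4 overlap the WT points.

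**Figure D2:**
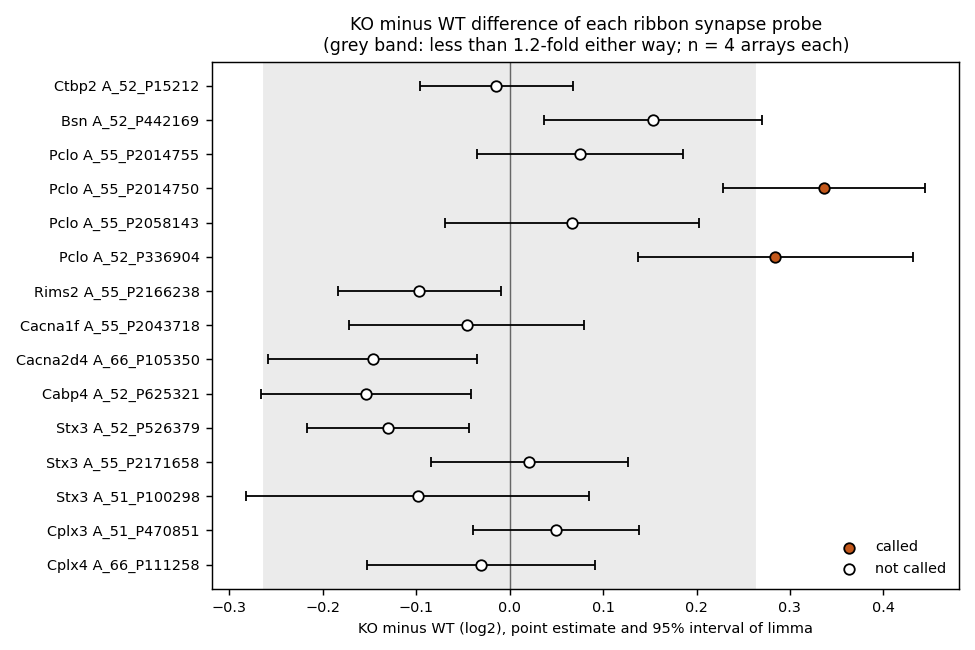
Difference between genotypes for the 15 probes. The x axis is KO minus WT on the log2 scale, circles are limma estimates with 95% intervals from 4 arrays per genotype, filled circles were called, and the grey band marks changes under 1.2-fold. Only the estimates of A_55_P2014750 and A_52_P336904 of Pclo, at 0.34 and 0.28, lie outside the band.

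Ctbp2 encodes both the transcriptional corepressor CtBP2 and, from an alternative start, RIBEYE, the main protein of the ribbon. Its probe A_52_P15212 gave 4.71, 4.73, 4.68 and 4.71 on WT arrays 1 to 4 and 4.74, 4.68, 4.65 and 4.70 on KO arrays 1 to 4. The genotypes overlapped, with the highest and the lowest level both on KO arrays. The difference was -0.01 (SE 0.04, 95% interval -0.10 to 0.07, limma adjusted p = 0.842), so that the change in KO signal lay between -6.42% and 4.77%. The probe is annotated to NM_009980, and which of the products of the gene it detects cannot be told from the files.

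Bassoon, encoded by Bsn, anchors the ribbon to the presynaptic membrane. The Bsn probe A_52_P442169 gave 2.11, 2.07, 2.09 and 2.10 in WT and 2.23, 2.12, 2.30 and 2.33 in KO. Every KO array lay above every WT array, with KO array 2 close to the highest WT array, and the KO arrays were spread more widely (SD 0.09 against 0.02). The difference of 0.15 (SE 0.05, 95% interval 0.04 to 0.27) did not pass the adjusted test (limma adjusted p = 0.115).

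Pclo encodes Piccolo, the large scaffold protein related to Bassoon, of which ribbon synapses are known to use mainly a shortened form. The probe A_55_P2014750, annotated to NM_011995, gave 0.59, 0.68, 0.62 and 0.68 in WT and 0.92, 0.92, 1.01 and 1.06 in KO. All KO arrays were clearly above all WT arrays, and the gap between the genotypes was wider than the range within either. The transcript signal at this probe rose by 0.34 (SE 0.05, 95% interval 0.23 to 0.44, limma adjusted p = 0.0123), which is 1.26-fold. The other called probe, A_52_P336904, is annotated to the same transcript and was dim, with signals of 192 to 290 units. It gave -1.69, -1.58, -1.85 and -1.66 in WT and -1.42, -1.35, -1.49 and -1.38 in KO, again with no overlap and with WT array 3 the lowest. The rise was 0.28 (SE 0.06, 95% interval 0.14 to 0.43, limma adjusted p = 0.0438), or 1.22-fold.

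The Pclo probes annotated to NM_001110796 were not called. A_55_P2014755 gave 2.47, 2.39, 2.28 and 2.40 in WT and 2.51, 2.47, 2.42 and 2.44 in KO, with a difference of 0.08 (SE 0.05, 95% interval -0.03 to 0.19, limma adjusted p = 0.383). WT array 1 lay within the KO range, so that the genotypes overlapped. A_55_P2058143 gave -1.15, -1.37, -1.30 and -1.29 in WT and -1.12, -1.19, -1.30 and -1.24 in KO, with a difference of 0.07 (SE 0.06, 95% interval -0.07 to 0.20, limma adjusted p = 0.537). Here too the arrays of the genotypes were interleaved. The 4 Pclo probes were therefore all higher in KO in their means, and those of NM_011995 were called while those of NM_001110796 were not. Which Pclo transcripts each probe detects cannot be told from the files, so no difference between transcripts is shown.

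RIM2, encoded by Rims2, docks and primes vesicles and positions calcium channels at the active zone. Its probe A_55_P2166238 gave 1.03, 0.96, 0.98 and 1.01 in WT and 0.94, 0.90, 0.84 and 0.90 in KO. All KO arrays lay below all WT arrays, with KO array 1 close to the lowest of WT. The difference of -0.10 (SE 0.04, 95% interval -0.18 to -0.01) was not called (limma adjusted p = 0.169).

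The calcium channel of the terminal was represented by 3 genes. Cacna1f encodes the pore-forming subunit of Cav1.4, and its probe A_55_P2043718 gave 4.16, 4.26, 4.20 and 4.29 in WT and 4.09, 4.17, 4.17 and 4.30 in KO. The highest level of all was on KO array 4 and the genotypes overlapped. The difference was -0.05 (SE 0.05, 95% interval -0.17 to 0.08, limma adjusted p = 0.650).

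Cacna2d4 encodes the auxiliary alpha2delta subunit that brings the channel to the terminal. The probe A_66_P105350 gave 3.37, 3.24, 3.26 and 3.20 in WT and 3.15, 3.18, 3.07 and 3.09 in KO. Every KO array was below every WT array, with WT array 1 the highest. The difference was -0.15 (SE 0.05, 95% interval -0.26 to -0.03, limma adjusted p = 0.116).

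Cabp4 encodes a calcium-binding protein that shifts the activation of Cav1.4. The probe A_52_P625321 gave 3.85, 3.84, 3.86 and 3.97 in WT and 3.68, 3.66, 3.76 and 3.80 in KO, without overlap. Its difference was also -0.15 (SE 0.05, 95% interval -0.27 to -0.04, limma adjusted p = 0.104). None of the channel genes passed the adjusted test in the fit reported here, and for Cacna2d4 and Cabp4 the interval left out 0 while its lower end lay near the 1.2-fold limit.

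Vesicle fusion at the ribbon uses syntaxin 3, encoded by Stx3, in place of the syntaxin 1 of conventional synapses. The probe A_52_P526379, annotated to NM_001025307, gave 4.72, 4.73, 4.73 and 4.80 in WT and 4.58, 4.58, 4.64 and 4.65 in KO. All KO arrays lay below all WT arrays, and the difference was -0.13 (SE 0.04, 95% interval -0.22 to -0.04). With a limma adjusted p of 0.0832 it was not called, and under quantile normalization and cyclic loess it was -0.08. The Stx3 probes of NM_152220 overlapped between genotypes. A_55_P2171658 gave 0.54, 0.57, 0.55 and 0.62 in WT and 0.68, 0.53, 0.63 and 0.53 in KO, a difference of 0.02 (SE 0.05, limma adjusted p = 0.817). A_51_P100298 gave -1.07, -1.18, -1.22 and -0.90 in WT and -1.21, -1.31, -1.07 and -1.16 in KO, a difference of -0.10 (SE 0.08, limma adjusted p = 0.499). The last probe was the most variable of the member probes, with an SD of 0.14 in WT.

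Complexins clamp and synchronise the fusion machinery, and Cplx3 and Cplx4 encode the forms characteristic of retinal ribbon synapses. Cplx3, also made by some amacrine cells, gave 4.31, 4.34, 4.36 and 4.33 in WT and 4.32, 4.37, 4.42 and 4.43 in KO at the probe A_51_P470851. The 2 highest levels were on KO arrays 3 and 4, but KO array 1 lay within WT, and the difference was 0.05 (SE 0.04, 95% interval -0.04 to 0.14, limma adjusted p = 0.478). Cplx4 gave 2.25, 2.35, 2.34 and 2.30 in WT and 2.14, 2.32, 2.32 and 2.33 in KO at the probe A_66_P111258. Apart from KO array 1, which was the lowest, the Cplx4 levels of the genotypes were mixed, and the difference was -0.03 (SE 0.05, 95% interval -0.15 to 0.09, limma adjusted p = 0.769).

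Probes of 1 gene were also compared with each other for Pclo and Stx3, the members with several probes. For each gene the probe with the highest mean served as reference, and the difference between probes was taken on each array before WT and KO were set against each other in 5 exact permutation tests (two-sided). The difference between genotypes was larger at A_55_P2014750 than at A_55_P2014755 of Pclo by 0.26, and larger at A_52_P336904 by 0.21. For Stx3, A_55_P2171658 differed from A_52_P526379 by 0.15 in the same sense. These 3 contrasts each had an exact permutation p of 0.0286, the smallest that 4 against 4 arrays can give, and an adjusted p of 0.0476 over the 5 contrasts. They rest on the same arrays and levels as the calls given above and add no independent evidence to them. They compare probes, and which transcripts of Pclo or Stx3 a probe detects cannot be told from the files. The other contrasts, -0.01 for A_55_P2058143 of Pclo and 0.03 for A_51_P100298 of Stx3, did not pass, the lower exact permutation p being 0.657 (Stx3). Under quantile normalization or cyclic loess the contrasts of A_55_P2014750 and A_55_P2171658 still had the smallest exact permutation p of 0.0286, while that of A_52_P336904 had 0.0571. With 5 contrasts, 3 must reach the smallest p together for any to pass, so the adjusted p of all 3 then lay above 0.05, at 0.0714 to 0.0952.

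**Figure D3:**
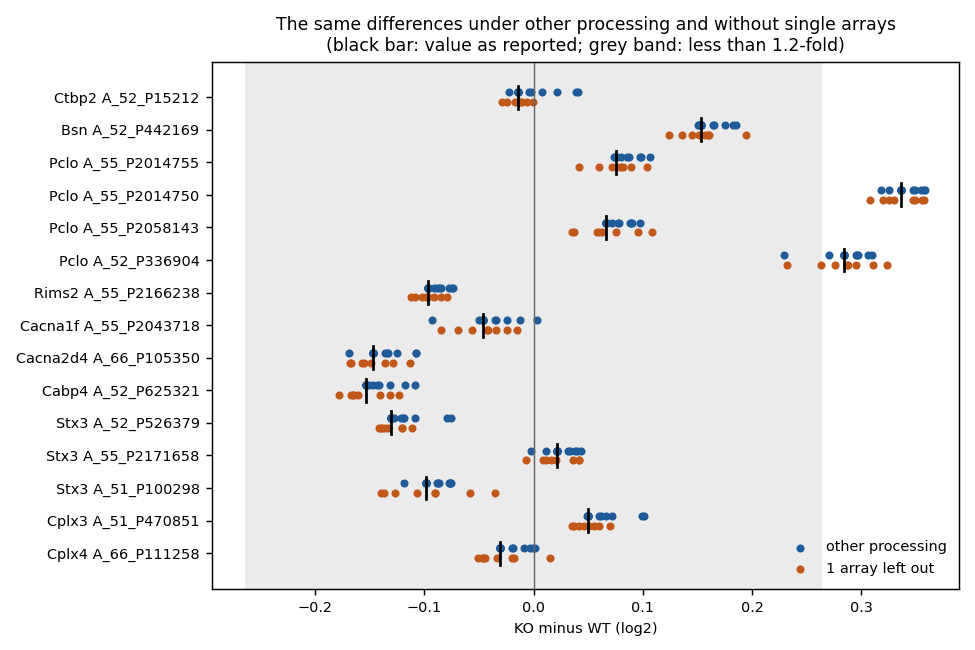
The differences of the 15 probes under other processing. The x axis is KO minus WT on the log2 scale, black bars are the values reported above, blue points are other normalizations, filters and tests, orange points are fits without 1 of the 8 arrays, and the grey band marks changes under 1.2-fold. A_55_P2014750 of Pclo stays between 0.31 and 0.36, whereas points of A_52_P336904 fall inside the band.

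How far the Pclo calls depended on single arrays differed between its probes. A_55_P2014750 kept its call without any 1 of the 8 arrays, with differences of 0.31 to 0.36 and limma adjusted p between 0.0181 and 0.0422. A_52_P336904 lost its call in all 8 of these fits, with differences of 0.23 to 0.32 and limma adjusted p between 0.0646 and 0.111. Without WT replicate 3, the array with the lowest level, its difference was 0.23. No other member probe was called in any of these 8 fits. With a trend and robust variance in limma the adjusted p was below 0.05 at Bsn (0.0440), Cacna2d4 (0.0389), Cabp4 (0.0300) and A_52_P526379 of Stx3 (0.0199), and with the methods' test it was so at that Stx3 probe (0.0433), while these differences stayed below 1.2-fold. The small differences of Ctbp2, Cacna1f, Cplx4 and A_55_P2171658 of Stx3 had the opposite sign under at least 1 other scaling or background correction, so no direction is given for them.

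A wider list of 65 genes of the presynaptic terminal set the members in context. It covered active zone proteins, further calcium channel subunits, the vesicle fusion machinery, glutamate transport, endocytosis and a trans-synaptic group. That group held adhesion proteins that span the cleft together with intracellular proteins such as those of Dmd and Tulp1. Of the wider list, 63 genes were tested with 95 probes. Elfn1 was too dim to test and Lrit3 had no matched probe. The median difference of the 95 probes was 0.01. It was 0.06 under quantile normalization and 0.05 under cyclic loess. It was -0.0010 without WT replicate 4, -0.0006 without KO replicate 1 and -0.0035 without KO replicate 2. There were 53 probes higher and 42 lower in KO (38.0% and 62.0% over all tested probes), and values ranged from -0.34 to 0.36. The lowest value came from a dim Syt7 probe that was well above background on only 2 of the 4 KO arrays. Of the 95 probes, 2 were called, both higher in KO, and 0 were called lower, a share near the 2.92% of all tested probes. Genotypes did not overlap at 8 probes that were higher in KO and at 11 that were lower, which is near the 6.05% and 11.4% of all tested probes. The 95% interval lay within a 1.2-fold change at 68 probes (51.5% over all tested probes).

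Vamp1, which encodes a vesicle SNARE, gave 1.93, 1.94, 2.05 and 2.17 in WT and 2.28, 2.32, 2.38 and 2.54 in KO. Its level rose by 0.36 (SE 0.07, limma adjusted p = 0.0363). Cacna2d3, an auxiliary calcium channel subunit found in several retinal neurons, gave 3.52, 3.66, 3.69 and 3.55 in WT and 3.75, 4.08, 3.94 and 4.02 in KO. It rose by 0.34 (SE 0.08, limma adjusted p = 0.0438). Vamp1 lost its call in 6 and Cacna2d3 in 7 of the 8 fits without 1 array, with limma adjusted p up to 0.0997 and 0.106. Their differences in these fits were 0.31 to 0.41 and 0.30 to 0.41. Both calls were also lost under a median shift, with no filter on dim probes, with the methods' t-test and at a fold change over 1.5. Under the replicate block Cacna2d3 lost its call and Vamp1 kept it.

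Other core components of the terminal gave values that did not pass. Unc119, a ribbon-associated protein that binds lipid-modified cargo, differed by -0.19 (SE 0.04, limma adjusted p = 0.0508), and Slc17a7, the vesicular glutamate transporter of photoreceptors, by -0.18 (SE 0.05, limma adjusted p = 0.0954). At each of these the KO arrays lay wholly below the WT arrays. The Unc119 difference depended on the scaling and was -0.06 under quantile normalization and -0.09 under cyclic loess, and its limma adjusted p ranged from 0.0051 to 0.446 over the alternatives. The synaptic vesicle protein Syp differed by -0.01, the SNARE genes Snap25 and Vamp2 each by 0.06, and the priming factor Unc13b by 0.03. Erc2, which encodes the active zone protein CAST, differed by -0.08 and -0.02 at its probes, and Cacnb2, the channel's beta subunit, by -0.15 and -0.08, with the genotypes overlapping at each. By group, the median difference was -0.05 over 23 probes of active zone proteins, 0.04 over 13 of calcium channel subunits, 0.04 over 28 of vesicle fusion, 0.00 over 7 of glutamate handling, 0.04 over 15 of endocytosis and -0.09 over 9 of trans-synaptic proteins. These medians count several probes of some genes, and with 1 probe per gene (the one with the highest mean) that of active zone proteins was 0.04 and that of endocytosis -0.04, so no direction is given for these groups.

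Markers of some retinal cell types also differed between genotypes, and probes were called in the rod, cone, Müller glia and microglia lists. Of the 18 probes of 15 rod genes, 4 were called lower and 0 higher, beside 1.54% and 1.38% of all tested probes, and the median difference was -0.22. The rod signal summed over the list, in multiples of the 75th percentile signal, spanned 2815 to 2909 on WT arrays and 2368 to 2557 on KO arrays. Of 15 cone probes 3 were called higher (1.38% of all tested probes), with a median of 0.14 and a summed signal that spanned 257 to 262 on WT arrays and 285 to 296 on KO arrays, and 2 of them belonged to Arr3, cone arrestin, at 0.46 and 0.53. In bulk tissue, fewer cells of a type and less RNA per cell cannot be told apart.

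The cells that receive the photoreceptor output, or lie beyond it, gave smaller values. Of 13 bipolar probes 0 were called, with a median of 0.08, a summed signal of 229.5 to 236.5 on WT and 238.3 to 242.8 on KO arrays, and with Prkca, the rod bipolar kinase, at 0.05 (limma adjusted p = 0.434). The medians were 0.06 over 13 amacrine and horizontal probes and 0.03 over 9 ganglion cell probes, with 0 called in each. The summed ganglion cell signal was higher on every KO array (160.0 to 167.6) than on every WT array (157.3 to 159.4). The amacrine and horizontal signal, summed in the same way, was higher on every KO array (147.4 to 149.3) than on every WT array (136.4 to 139.7). In this sum the bright Slc6a9 and Slc32a1 weigh most, while Lhx1, Onecut1 and Calb1, genes of horizontal cells, were dim and overlapped between genotypes. The sum therefore shows no shift of horizontal cell genes. At 4 of the 13 probes, those of Gad1, Gad2 and Slc6a9, KO was higher without overlap, beside 6.05% of all tested probes. Beside 1.38% of all tested probes, Müller glia genes had 3 of 10 probes called higher (median 0.18, summed signal 295 to 315 on WT and 354 to 364 on KO arrays), and microglia genes 6 of 14 (median 0.24, summed signal 14.6 to 15.9 on WT and 18.4 to 19.2 on KO arrays). Of the tissues next to the retina, pigment epithelium and lens genes had 0 called, with medians of 0.07 over 9 probes and -0.03 over 4, and Best1, Lim2 and Mip were among those too dim to test. The part of these shifts in the values of the ribbon synapse genes was not tested.

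Since several members are expressed in rods, each member probe was also taken relative to the mean level of the 15 rod genes on the same array, a reference chosen after seeing the data. That mean was 7.26 ± 0.02 in WT and 7.05 ± 0.03 in KO (SD, n = 4 each), a difference of -0.21. Taking it away moves the difference of every probe up by this same amount, and since no member difference was as low as -0.21, all 15 had to turn out higher in KO. They did so by 0.06 to 0.55 with a median of 0.20, and 89.9% of all tested probes were higher in the same way. At 9 of them the genotypes did not overlap, against 40.6% of all tested probes taken in the same way. This count is raised by the same shift and depends on the reference. Pclo gave 0.28 to 0.55, Bsn 0.36, Cplx3 0.26 and Ctbp2 0.20, whereas Cacna2d4, Cabp4 and the probe A_52_P526379 of Stx3 gave 0.06 to 0.08 with overlap between genotypes. Without overlap, Rims2 gave 0.11 and A_55_P2171658 of Stx3 gave 0.23. With overlap, Cacna1f gave 0.16, Cplx4 0.18 and A_51_P100298 of Stx3 0.11.

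**Figure D4:**
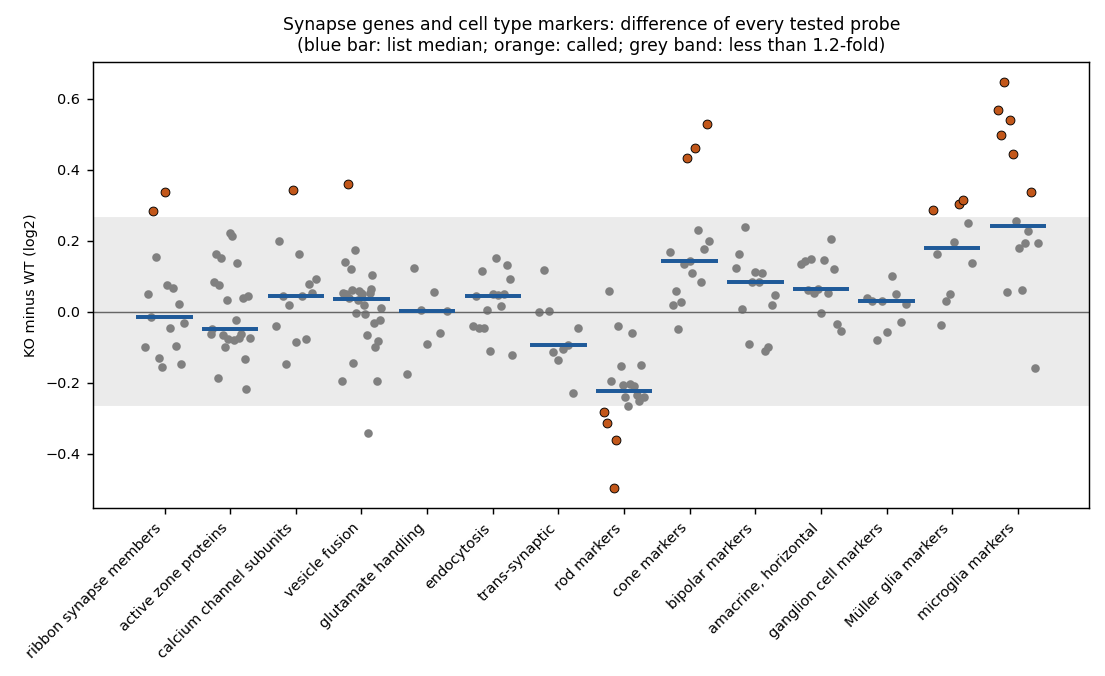
Difference of every tested probe in the synapse and cell type lists. The y axis is KO minus WT on the log2 scale, grey points are probes, orange points were called, blue bars are list medians, and the grey band marks changes under 1.2-fold. The ribbon synapse and other synaptic lists have medians between -0.09 and 0.04, while the rod markers lie lower, at -0.22, and the Müller glia and microglia markers higher, at 0.18 and 0.24.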

How the data were processed

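Whole retina RNA of 4 WT and 4 KO samples was profiled, and labels gave the groups. The authors quantified scans with Agilent Feature Extraction 10.7.1.1, and the deposited scanner files hold background-subtracted intensity on a linear scale without scaling between arrays. The deposited series table holds the authors' values after a 75th percentile shift on a log2 scale. For probes printed once it differed from the levels used here by a constant of 0.12 to 0.15 per array, and it served as an alternative (0 sample columns were unused).

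Levels were log2 processed signals minus the 75th percentile over 59305 non-control spots. Outlier spots were left out (86 to 147 per array), repeated spots were averaged, and 33972 probes were tested, each well above background on every array of WT, of KO or of both. Symbols came from a RefSeq table by transcript accession, which named 26413 of 55681 probes (47.4%). Its assembly differs from the mm9 build of the array design, so it supplied names only, while upstream stretches carry the coordinates of GRCm38.p6. The genotype term was fitted with limma 3.58.1 (lmFit, then eBayes; R 4.3.3) with Benjamini-Hochberg adjustment. Nothing states that a number is shared by an animal or a litter, but same-numbered arrays lay in the same slide column. Deviations from the genotype means of same-numbered samples correlated at 0.04 to 0.25. Replicate number was not used as a block in the reported fit, and a fit with it is given among the alternatives. The fit was tested on simulated data. Members and lists were chosen with earlier results of these data known. The text names every member probe, called genes of the wider synapse list, fixed genes of that list (Slc17a7, Snap25, Syp, Vamp2, Unc119, Erc2, Unc13b, Cacnb2 and Lrit3), Arr3, Prkca and Lpcat1. A few named items are not reported here. Cell type lists are given by counts, medians and summed signals, with single genes named where a statement rests on them. Alternatives were other scalings, normexp on median signals (offset 50), other filters, tests and thresholds, a replicate block and the omission of each array. The number of arrays limits the precision.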

Additional observations from a re-analysis of the deposited data

Results flagged for a closer look

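Among 66 sets of 4 levels checked (each named probe in each genotype), 2 held an array that stood far from the other 3 by Dixon's criterion, which chance alone meets in about 1 in 20 sets. The Cabp4 level on WT replicate 4 was 3.97, against 3.84 to 3.86 on the other WT arrays. It lies on the side away from KO, and without this array the Cabp4 difference was -0.12 in place of -0.15. The Cplx4 level on KO replicate 1 was 2.14, against 2.32 to 2.33 on the other KO arrays. Without it the Cplx4 difference was 0.01 in place of -0.03.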

How the results depend on the processing

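The called member probes numbered 2 in the reported fit. The count was 1 under a median shift, normexp background correction, the methods' t-test, array weights and the replicate block, and 0 with no filter on dim probes or a fold change over 1.5. It was 1 without each of the 8 arrays in turn. Each probe called in any of these fits was a Pclo probe higher in KO. With no filter A_55_P2014750 narrowly missed the threshold (difference 0.34, limma adjusted p = 0.0521). For the wider synapse list the count of 2 became 0 under a median shift, no filter, the methods' t-test and a fold change over 1.5, 1 under the replicate block, 4 with no minimum fold change, and 0 to 2 without single arrays. Over all probes, 992 calls (470 higher and 522 lower) became 246 with no filter, 138 at a fold change over 1.5, 1869 with no minimum fold change, 3136 at an adjusted p under 0.5, 395 with the replicate block and 391 to 1182 without single arrays. The split also moved with the scaling, to 583 higher and 367 lower with the 75th percentile of detected probes and to 629 and 341 with cyclic loess. The omission of any array other than KO replicate 1 lowered the count, to between 391 (WT replicate 2) and 552 (WT replicate 4), and that of KO replicate 1 raised it. The cause was not tested.

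Signs turned at differences close to 0. Ctbp2 was 0.0388 under quantile normalization, 0.0409 under cyclic loess, 0.0078 with the percentile of detected probes and 0.0218 under normexp. Cacna1f was 0.0035 under cyclic loess, Cplx4 was 0.0013 under quantile normalization and A_55_P2171658 of Stx3 was -0.0020 under normexp. Syp was 0.0860 under quantile normalization, 0.0045 under a median shift, 0.0162 with the percentile of detected probes, 0.0650 under cyclic loess, 0.0229 under normexp and 0.0062 in the authors' table. Without single arrays A_55_P2171658 of Stx3 ranged from -0.0067 (without KO replicate 1) to 0.0417, Cplx4 from -0.0509 to 0.0148 (without KO replicate 1), Syp from -0.0267 to 0.0117 (without KO replicate 2) and the second Erc2 probe from -0.0756 (without KO replicate 1) to 0.0112 (without WT replicate 1). Between probes of 1 gene, A_55_P2014750 against A_55_P2014755 was 0.26 under quantile normalization and 0.25 under cyclic loess, A_52_P336904 against A_55_P2014755 was 0.20 under each, and A_55_P2171658 against A_52_P526379 was 0.12 and 0.11, with adjusted p from 0.0714 to 0.0952. A_51_P100298 against A_52_P526379 turned to -0.0092 under quantile normalization and -0.0015 under cyclic loess, and A_55_P2058143 against A_55_P2014755 to 0.0243 under normexp. Without single arrays the 3 contrasts that passed ranged from 0.22 to 0.30, 0.18 to 0.25 and 0.11 to 0.18, as values with no test and as an alternative chosen after seeing the data. Of the other values of single probes, 728 kept their direction and their side of the threshold and 45 kept only the direction.

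In the replicate block fit the called member probe was A_55_P2014750 (limma adjusted p = 0.0485), and A_52_P336904 was at 0.0520. Same-numbered samples share a number and a slide column, so this block cannot be told apart from a block by slide column. Of the 4 numbers, 3 matched best with their own.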
